A study of Mus musculus with 34 samples.

Results

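Fibroblasts of inguinal fat were compared with fibroblasts of brown fat, across all genes, in bulk RNA sequencing libraries of sorted mouse cells. The comparison used the 3 libraries labelled as inguinal adipose fibroblasts and the 3 labelled as brown adipose fibroblasts, 6 of the 34 libraries of the series, chosen by their titles. Both groups carry the same sort labels. The cells were sorted from digested tissue as negative for CD45 (a leukocyte protein), CD31 (endothelial) and Epcam (epithelial), positive for podoplanin (PDPN) and PDGFRA, 2 surface proteins of fibroblasts, and negative for GFP. The labels place both depots in subcutaneous fat, and they give no strain, sex, age or genotype. They also do not say whether replicates came from separate or pooled animals. The p-values below therefore measure only the spread between libraries of a group, with an estimate shared over all 34 libraries. The remaining libraries are 19 of fibroblasts from 7 other tissues (bone, epididymal fat, mesentery, omentum, pancreas, spleen and lymph node) and 9 of mesothelial cells. They entered the fit, and the 7 fibroblast tissues served to place each difference.

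Inguinal fat is a white depot under the skin of the hindlimb and groin, which can gain heat-producing beige adipocytes in the cold. Brown fat burns lipid for heat through the mitochondrial protein UCP1. The fibroblasts of a fat depot include the progenitors of its adipocytes, among them a Dpp4-positive interstitial population and Icam1-positive cells committed to fat. Adult fibroblasts also keep a record of position, chiefly in the Hox genes, whose higher numbered members are used towards the rear of the body and the hindlimb and whose lower numbered members are used further forward. Zic1 and Lhx8 are transcription factors commonly used as markers of the classical brown lineage, and TMEM26 is a surface protein used as a marker of beige precursors.

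The library totals were 34836748 to 36101005 counts in the inguinal group and 35180429 to 42335589 in the brown group. Gene levels are given as CPM, which divides a count by the size of its library after scaling by a normalization factor, and are listed for replicates 1, 2 and 3. Among transcripts of the sort markers, Pdgfra lay between 851 and 1088 CPM and Pdpn between 187 and 288 in all 6 libraries, whereas Ptprc (the CD45 gene) and Epcam were below 1. Pecam1, which encodes CD31, was at 3.16 to 18.3 CPM and overlapped between the groups. Adiponectin (Adipoq), the product of mature adipocytes, was at most 1.10 CPM. Of the 12 fibroblast identity genes, such as Col1a1 and Dcn, none was called between the depots.

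The inguinal and brown libraries were close to each other. Across genes, an inguinal and a brown library correlated at a mean Pearson's r of 0.960 in log2 CPM (9 pairs, 0.954 to 0.966), a range that spans the 3 pairs within brown (0.957 to 0.965) and overlaps the 3 within inguinal (0.962 to 0.967). This mean was the highest among the 36 pairs of fibroblast tissues. The points are genes of libraries with similar depth, so the coefficient is a description and carries no test. A gene was called when its log2 fold change between depots was at least 1 in size and its Benjamini-Hochberg adjusted p in the quasi-likelihood test of edgeR was under 0.05. Of the 25705 genes tested, 181 were called (0.704%), 69 higher in inguinal (0.268%) and 112 higher in brown (0.436%). The median log2 fold change of all genes was 0.00. In 173 of the 181 the 3 inguinal and 3 brown libraries did not overlap, and 84 reached at least 10 CPM in the group where they were higher. The calls rest on the same libraries, so a lack of overlap in a called gene, here and below, is a description and no separate support.

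**Figure D1:**
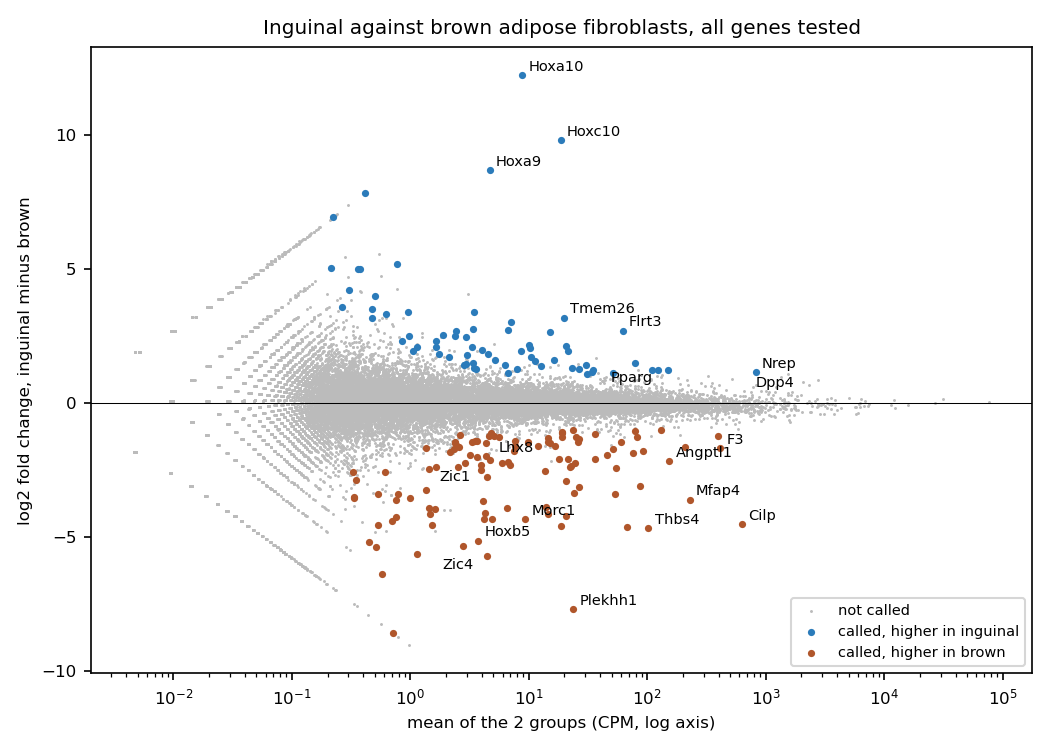
Log2 fold change (inguinal minus brown) against mean expression for each gene tested, with called genes coloured by direction and the main named genes labelled. Most genes lie near 0. Among the labelled genes, the posterior Hox genes stand at the top and Plekhh1, Zic4, Hoxb5, Thbs4 and Cilp at the bottom. Some genes without a label lie as low or lower, such as Tnnc2 (-8.60) and Acta1 (-5.73). Tnnc2 had no inguinal count, so its value depends on the small count added by the fit. With 3 counts over the inguinal group as the limit, it was at least 47.5-fold higher in brown.

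One library often had the highest value on the brown side. Brown replicate 1 was the highest of its group in 81 of the 112 genes higher in brown, against 17 for replicate 2 and 14 for replicate 3. Without it, 116 genes were called, 42 higher in inguinal and 74 higher in brown, and 105 of these were among the 181. A fit on the 6 libraries alone called 105 genes, 44 and 61 by direction. Calls that these changes ended are named with their genes below.

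The clearest difference was in the Hox genes. Posterior members of the HoxA and HoxC clusters were expressed in inguinal fibroblasts and at or near 0 in brown. Hoxa10 (ENSMUSG00000000938, GRCm38 chr6:52231197-52240854) was at 17.2, 17.3 and 18.3 CPM in inguinal libraries, from 1747 counts, and had no count in any brown library. With 3 counts over the brown group as the limit that a count of 0 allows, it was at least 621-fold higher in inguinal (adjusted p = 1.71e-11). Hoxc10 (ENSMUSG00000022484, chr15:102966796-102971893) was at 36.4, 40.4 and 34.8 CPM in inguinal and at 0.115, 0 and 0 in brown, where it had 4 counts in all (log2 fold change 9.81 ± 0.64 SE, adjusted p = 2.81e-13). The groups were far apart for both genes, and the 3 inguinal libraries were nearly level.

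Hoxa9 (ENSMUSG00000038227, chr6:52223100-52231089) followed, at 10.3, 5.69 and 12.1 CPM in inguinal and 0.0288, 0 and 0.0279 in brown. The 2 brown counts give an inguinal to brown ratio of 495, with a 95% counting interval of 137 to 4090 (adjusted p = 2.39e-08). Hoxc9 and Hoxc8, which lie beside Hoxc10 on chromosome 15, differed by less because the brown libraries expressed them too. Hoxc9 was at 2.79, 3.39 and 3.58 CPM in inguinal and 0.776, 0.311 and 0.586 in brown (2.54 ± 0.45, adjusted p = 0.00115). Hoxc8 was at 15.1, 10.3 and 15.7 against 3.62, 2.74 and 4.46 (1.92 ± 0.29, adjusted p = 0.000136). Neither gene overlapped between the groups, and the calls of Hoxa9, Hoxa10, Hoxc8, Hoxc9 and Hoxc10 held in every alternative run. Hoxc11 was called at a much lower level, 0.891, 0.124 and 0.247 CPM against 0.0288, 0 and 0, and lost its call without inguinal replicate 1 (adjusted p = 0.38), without any 1 brown library (0.0504 to 0.0794), with the 25 fibroblast libraries (0.0684) and with DESeq2 (0.0892).

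The anterior side went the other way in 1 gene. Hoxb5 (ENSMUSG00000038700, chr11:96303336-96306121) was at 11.0, 6.85 and 3.90 CPM in brown and 0.115, 0.342 and 0.154 in inguinal, 36.0 times as high by the group means (log2 fold change -5.14 ± 0.51, adjusted p = 6.15e-08). The groups did not overlap. An antisense transcript, Hoxb5os, overlaps it, and reads of the 2 strands cannot be told apart without strand information. Hoxb5 means in epididymal fat, mesentery, omentum, pancreas and spleen were 3.38 to 6.67 CPM, near the brown mean of 7.25. Bone (0.415) and lymph node (0.230) were near the inguinal mean of 0.204. Against the mean of the 7 other tissues, inguinal was lower by 3.44 log2 units and brown higher by 1.70. By paralog number, 5 of the 8 tested genes of paralogs 9 to 13 were called higher in inguinal and none higher in brown, with a median log2 fold change of 3.79. Hoxb9, Hoxd9 and Hoxd10 of that set were below 1 CPM in every library and were not called. Of the 7 tested in paralogs 6 to 8, Hoxc8 was the 1 called gene, and their median was -0.17. Of the 13 tested in paralogs 1 to 5, 12 had a negative log2 fold change (median -0.91) and Hoxb5 was the 1 called. Hoxc4, at 2.44, 1.52 and 3.33 CPM in inguinal and 7.48, 6.99 and 5.49 in brown, missed the threshold (adjusted p = 0.0549), as did Hoxa5 (0.066) and Hoxc5 (0.0869). Hoxa5 and Hoxc4 were both called with DESeq2 (adjusted p = 0.00258 and 0.0185), and in edgeR with RLE scaling (0.0472 and 0.0427) and with no filter on low counts (0.0254 and 0.00401). Hoxa5 was also called without inguinal replicate 1 (0.0235), Hoxc4 with the 25 fibroblast libraries (0.0447) and Hoxc5 without brown replicate 3 (log2 fold change -1.10, adjusted p = 0.0341). These 3 were named after their values were seen. The gene model of Hoxc5 spans Hoxc8, Hoxc9 and Hoxc10, and reads within it may have been divided between them.

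**Figure D2:**
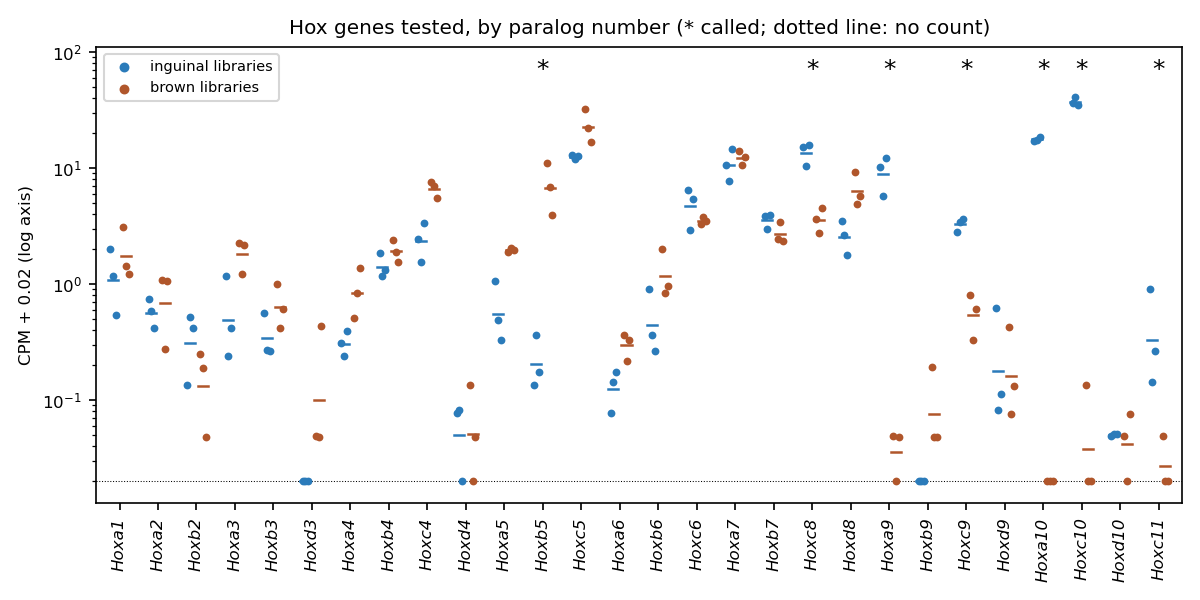
CPM plus 0.02 on a log axis for each Hox gene tested, in order of paralog number, with 1 point per library and lines at the geometric mean of each group; the dotted line marks no count and * marks called genes. Brown libraries lie above inguinal ones for Hoxb5, and the order is reversed with no overlap for Hoxc8, Hoxa9, Hoxc9, Hoxa10, Hoxc10 and Hoxc11.

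Upstream sequence of Hoxa9, Hoxa10 and Zic1 is shown because the Hox genes differ most in these data and Zic1 is the called brown lineage marker whose upstream region the reference table holds. Each is the 200 bases from 250 to 51 before an annotated start in RefSeq (GRCm38.p6), 5′ to 3′ on the gene's strand, with matches to the motifs searched in capitals. The entries lie on the minus strand at chr6:52227421-52227620 (Hoxa9), chr6:52240905-52241104 (Hoxa10, the upstream start), chr6:52234990-52235189 (Hoxa10, an internal start) and chr9:91365819-91366018 (Zic1). The Hoxa9 window, like that of the internal Hoxa10 start, lies inside the gene span given above.
Hoxa9: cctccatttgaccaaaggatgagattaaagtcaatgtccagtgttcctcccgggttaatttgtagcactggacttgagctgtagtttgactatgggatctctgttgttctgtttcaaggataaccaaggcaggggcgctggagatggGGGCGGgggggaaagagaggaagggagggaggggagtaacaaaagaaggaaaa
Hoxa10, upstream start: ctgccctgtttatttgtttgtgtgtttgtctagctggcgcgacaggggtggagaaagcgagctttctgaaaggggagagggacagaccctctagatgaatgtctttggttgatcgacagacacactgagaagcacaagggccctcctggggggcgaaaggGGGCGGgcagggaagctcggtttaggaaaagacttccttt
Hoxa10, internal start: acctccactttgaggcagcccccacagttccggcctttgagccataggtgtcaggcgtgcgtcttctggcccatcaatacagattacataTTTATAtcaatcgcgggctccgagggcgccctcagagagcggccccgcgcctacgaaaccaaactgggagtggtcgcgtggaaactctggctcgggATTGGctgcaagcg
Zic1: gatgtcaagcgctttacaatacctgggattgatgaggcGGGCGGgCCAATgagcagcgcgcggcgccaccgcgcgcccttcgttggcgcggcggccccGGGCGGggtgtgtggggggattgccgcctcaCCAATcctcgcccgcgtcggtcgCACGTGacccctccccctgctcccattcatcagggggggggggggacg

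The motifs were searched on both strands, and none contains another. The GC box (GGGCGG), present in 24.6% of the 32851 RefSeq windows of the same length, occurred once in the Hoxa9 window, once at the upstream Hoxa10 start and 2 times in Zic1. The CCAAT box (28.4% of windows) occurred 2 times in Zic1 and once, on the opposite strand, at the internal Hoxa10 start, which also held a TATA box (TATAAA, 9.14%) on the opposite strand. The E-box (CACGTG, 4.34%) was found once in Zic1, and the homeodomain core (TAATTA, 4.19%) was found in none of these windows. The Zic1 window had 71.5% G and C, against a median of 51.5% over all windows. These matches are descriptions of the sequence.

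Of 14 genes linked to the brown lineage, 2 were called, Zic1 and Lhx8, both higher in brown and at low levels (median log2 fold change of the list -0.27, or -0.16 with a gene lacking counts in 1 group at its bound). Zic1 (ENSMUSG00000032368, chr9:91358058-91365810) was at 5.35, 7.38 and 7.19 CPM in brown and 1.84, 1.18 and 0.956 in inguinal (log2 fold change -2.32 ± 0.41, adjusted p = 0.00126). Zic4, which lies beside and partly across Zic1 on the other strand, was at 4.46, 5.12 and 6.83 CPM in brown and 0.0575, 0.124 and 0.216 in inguinal (-5.35 ± 0.55, adjusted p = 1.67e-09). Lhx8 was at 7.79, 8.91 and 6.30 CPM in brown and 1.58, 1.84 and 1.76 in inguinal (-2.15 ± 0.38, adjusted p = 0.000834). The groups did not overlap for any of the 3 genes, and their calls held in every alternative run. Zic4 was named after its values were seen, and part of its reads cannot be assigned between it and Zic1 without strand.

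Among the other tissues, Zic1 had group means of 0.607 to 1.3 CPM and Zic4 of 0 to 0.262, so brown was the highest of all 9 fibroblast tissues for both. Lhx8 was at 20.7 CPM in lymph node, above brown. The other brown lineage genes were not called. Ebf2, a factor of brown and beige precursors, was at 338, 321 and 343 CPM in brown and 314, 280 and 326 in inguinal (-0.12 ± 0.28, adjusted p = 0.995). Prdm16, a coregulator of the brown programme, was at 2.65 to 6.26 CPM across the 6 libraries (adjusted p = 0.982). Tbx15, a trunk mesenchyme factor often used as a subcutaneous marker, was at 43.2 to 62.7 CPM in both depots, with a difference of 0.07 ± 0.34.

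Of the 26 tested transcription factors of limb and trunk mesenchyme, 3 were higher in inguinal and 2, Zic1 and Lhx8, were higher in brown (median log2 fold change 0.14). Emx2, a homeobox gene of the limb girdles and urogenital tract, was at 4.37, 3.33 and 4.47 CPM in inguinal and 1.15, 0.566 and 0.446 in brown (2.49 ± 0.41, adjusted p = 0.000481). Its antisense neighbour Emx2os was at 15.6, 15.6 and 18.2 against 2.73, 3.99 and 4.21 (2.18 ± 0.36, adjusted p = 0.00055), and reads where they overlap cannot be assigned to a strand. Shox2, a limb homeobox gene, was at 25.1, 24.1 and 24.0 CPM in inguinal and 8.14, 7.95 and 7.81 in brown (1.61 ± 0.35, adjusted p = 0.0112). The groups were apart in all 3 cases. Pitx1, which specifies the hindlimb, was called at 0.603, 0.467 and 0.401 CPM against 0.0575, 0.0283 and 0.0279 (adjusted p = 0.0111). Bone had higher means than inguinal for Shox2 (51.3 against 24.4 CPM) and Pitx1 (1.79 against 0.490). Spleen, at a Pitx1 mean of 0.445 CPM, was near inguinal. The call of Shox2 was lost with DESeq2 (adjusted p = 0.766) and without any 1 brown library (0.0577 to 0.074), and that of Pitx1 with DESeq2 (0.06), without any 1 brown library (0.06 to 0.072), without inguinal replicate 1 (0.059) and in the fit on the 6 libraries (0.085).

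Of 14 tested thermogenic genes, 1 was higher in brown and none higher in inguinal, and the median was -0.10. Ucp1 was at 0.862, 0.124 and 0.154 CPM in inguinal and 0, 0.990 and 0.251 in brown, with overlapping groups (adjusted p = 1). Dio2, a deiodinase that activates thyroid hormone, was the called gene, at 3.97, 0.990 and 3.12 CPM in brown and 0, 0 and 0.524 in inguinal (-3.94 ± 0.79, adjusted p = 0.006). The call was lost with DESeq2 (adjusted p = 0.053), in the fit on the 6 libraries (0.063), and without brown replicate 1 (0.052) or inguinal replicate 1 (0.055) or 2 (0.059). Dio2 means in the 7 other tissues ran from 0 CPM in lymph node to 43.3 in bone, around the brown mean of 2.69. The difference of brown from their mean did not pass the edgeR test (0.44 log2 units, adjusted p = 0.718). Of the 12 tested genes linked to white and beige depots, Tmem26 (ENSMUSG00000060044, chr10:68723646-68782650) was the 1 called. It was at 28.0, 41.3 and 37.8 CPM in inguinal and 4.57, 5.15 and 2.09 in brown (3.18 ± 0.34, adjusted p = 2.4e-07), and no other fibroblast tissue had a mean above 13.

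No gene of the adipocyte progenitor lists passed the test. None of the 14 Dpp4 progenitor genes, the 13 Icam1 preadipocyte genes or the 16 adipogenic genes was called between the depots. Dpp4, the peptidase that names the interstitial progenitors, was at 804, 575 and 767 CPM in inguinal and 762, 818 and 637 in brown (log2 fold change -0.05 ± 0.21, adjusted p = 1). Pi16, a protease inhibitor of the same cells, was at 1622, 1334 and 1428 against 1754, 2244 and 1973 (-0.45 ± 0.29, adjusted p = 0.835). The Dpp4 values overlapped and the Pi16 values did not, though the Pi16 difference did not pass the test. The Dpp4 progenitor list had 11 of 14 log2 fold changes negative and a median of -0.25.

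The Icam1 preadipocyte list leaned the other way, with 12 of 13 log2 fold changes positive and a median of 0.46. Icam1 itself was at 285, 228 and 167 CPM in inguinal and 197, 133 and 153 in brown (0.49 ± 0.39, adjusted p = 0.909). Pparg, the nuclear receptor that drives adipocyte differentiation, was at 41.2, 85.2 and 44.0 against 25, 41.9 and 22.7 (0.93 ± 0.47, adjusted p = 0.687). The lipid uptake gene Cd36 was at 300.3, 576 and 422 against 193, 242 and 222 (0.98 ± 0.57, adjusted p = 0.777). Icam1 and Pparg overlapped between the groups, and Cd36 did not. The fatty acid carrier Fabp4 (0.85) and the lipase gene Lpl (0.78) had differences of similar size, also short of the test. The summed level of the list did not overlap between the groups, at 5011 to 6349 CPM in inguinal and 3345 to 3575 in brown before library scaling, and Lpl gave the most counts. The 16 adipogenic genes, which share Pparg, Cd36, Fabp4, Lpl and Dlk1 with it, summed to 3790 to 4485 CPM in inguinal and 2532 to 2636 in brown, with a median log2 fold change of -0.14. Cd36, Fabp4 and Lpl were named after their values were seen.

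Many of these genes were higher in both depots than in the mean of the 7 other tissues. The 2 comparisons share the 7 tissues, so they are given side by side and not as independent evidence. Over all genes, 4.35% were higher and 3.61% lower in brown than in the mean of the 7, and 4.04% were higher and 3.81% lower in inguinal. Of the 14 Dpp4 progenitor genes, 12 were higher in brown and 11 in inguinal, with medians of 1.71 and 1.59 log2 units against 0.04 and 0.06 over all genes. Dpp4 was higher by 2.39 log2 units in brown and 2.35 in inguinal, Pi16 by 2.63 and 2.18, and Wnt2, a Wnt ligand of the same cells, by 2.86 and 3.67, and none of the 7 tissue means reached either depot for these 3 genes. Of the 13 Icam1 preadipocyte genes, 4 were higher and 1 was lower in brown, while 8 were higher and none was lower in inguinal. Pparg was higher by 2.82 in brown and 3.74 in inguinal. Tbx15 was higher by 4.95 and 5.02, although bone (40.8 CPM) and lymph node (42.3) were near the means of brown (51.2) and inguinal (53.8) and the other 5 tissues were below 1. Of the limb and trunk factors, 15 of 26 were higher in brown and 16 in inguinal. Wt1, a factor of visceral mesenchyme, was lower by 6.09 in brown and 5.57 in inguinal, and bone (0.149 CPM) and lymph node (0.501) were below 1 CPM, as were both depots. As these are bulk samples, a different share of cells of a type and a different amount of RNA per cell cannot be told apart.

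**Figure D3:**
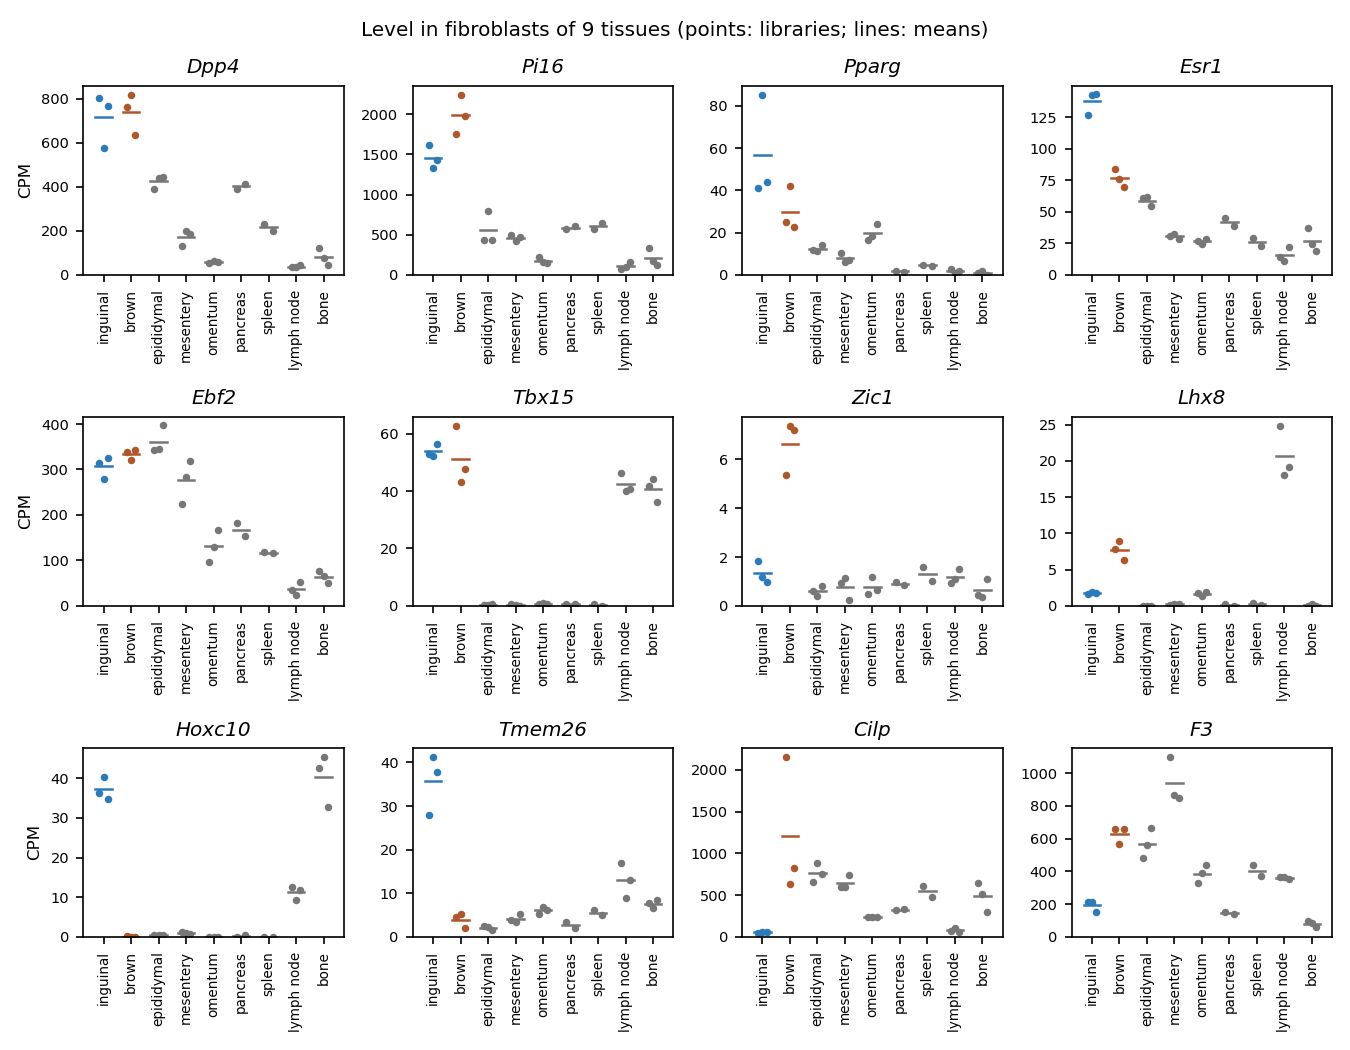
CPM on a linear axis in every fibroblast library of 9 tissues for 12 genes, with inguinal and brown libraries coloured and lines at tissue means. Dpp4 and Pi16 are high in both depots, while Hoxc10, Zic1 and Tmem26 separate them.

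Of 17 tested tendon and skeletal tissue genes, 4 were higher in brown and none in inguinal (median log2 fold change -0.84, or -0.55 with genes lacking counts in 1 group at their bound). Cilp (ENSMUSG00000042254, chr9:65265180-65280605), a secreted cartilage and tendon matrix protein, was at 2155, 632 and 823 CPM in brown and 49.5, 54.3 and 52.6 in inguinal (-4.53 ± 0.54, adjusted p = 1.43e-05). Per kilobase of exon it was, at 283 CPM, the most abundant called gene on the brown side. The lowest brown library was above the highest inguinal one by a wide margin, and brown replicate 1 was the highest. Thbs4, a matricellular thrombospondin, was at 391, 121 and 78.1 CPM in brown and 14.1, 2.74 and 6.01 in inguinal (-4.68 ± 0.73, adjusted p = 0.000519). Tnmd, a marker of mature tendon cells, was at 50.1, 12.6 and 16 against 2.67, 2.12 and 0.432 (-3.90 ± 0.48, adjusted p = 3.96e-06). The groups did not overlap for either gene. Tnc, tenascin C, was at 32.1, 92.1 and 7.08 CPM in brown and 0.948, 10.1 and 1.79 in inguinal, where the groups overlapped (adjusted p = 0.0339), and its call was lost without brown replicate 1 (0.06) or 2 (0.26), without inguinal replicate 1 (0.19) or 3 (0.2), with the 25 fibroblast libraries (0.068) and with the 6 (0.7). Scx, the tendon transcription factor, had 1 or no count in each library.

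Among the largest differences towards brown were also Hmcn2, Adamtsl2 and Mfap4. Hmcn2, a hemicentin of basement membranes, was at 233, 42.8 and 109 CPM in brown and 6.81, 3.11 and 5.52 in inguinal (-4.64 ± 0.51, adjusted p = 1.08e-06). Adamtsl2, a microfibril-associated protein, was at 73.3, 15.2 and 19.7 against 1.15, 2.30 and 1.05 (-4.59 ± 0.60, adjusted p = 1.43e-05). Mfap4, a microfibril and elastic fibre protein, was at 698, 278 and 291 against 34.1, 54.3 and 15 (-3.61 ± 0.36, adjusted p = 2.22e-07). All 3 had their highest value in brown replicate 1, and none overlapped between the groups. In the fit on the 6 libraries alone the calls of Thbs4 (adjusted p = 0.27), Tnmd (0.20), Hmcn2 (0.16), Adamtsl2 (0.22) and Mfap4 (0.14) were lost, and that of Cilp held. With the replicate number as a block in that fit, only the call of Mfap4 was lost among them (edgeR adjusted p = 0.12). On the matrix lists, none of the 17 fibrillar matrix genes, 16 basement membrane genes or 12 small proteoglycan genes was called, with medians of 0.11, 0.05 and -0.24, and 14 of the 17 fibrillar genes had positive values.

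These genes differed in which depot lay away from the mean of the 7 other tissues. Thbs4 and Tnmd were higher in brown than in the mean of the 7 (5.97 and 4.71 log2 units), and the differences of inguinal from it (1.29 and 0.81) did not pass the test. Mfap4 and Adamtsl2 were lower in inguinal than in the mean of the 7 (by 2.77 and 3.47), while brown was higher by 1.12 for Adamtsl2 and by 0.85, short of the size needed for a call, for Mfap4. Cilp was higher in brown (1.74) and lower in inguinal (-2.78). Single tissues reached past the depots: bone had more Thbs4 (264 CPM) and Tnmd (157) than brown, and lymph node had less Mfap4 (16.3) and Adamtsl2 (1.3) than inguinal.

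Beside these differences, skeletal muscle genes were also called. Of 11 tested, 2 were higher in brown, Acta1 (10.6, 7.04 and 8.48 CPM against 0.259, 0.187 and 0.0308) and Ckm (14.1, 8.06 and 5.86 against 0.431, 0.311 and 0.617), with adjusted p = 1.57e-05 and 0.00312. Acta1 resembles the other actin genes, so its reads are uncertain. Tnnc2, a skeletal muscle troponin gene outside this list, was also called, at 2.62, 0.707 and 0.976 CPM in brown and with no count in inguinal (adjusted p = 0.0326). It was named after its values were seen. The summed level of the 11, before library scaling, was 17.4 to 24.5 CPM in brown and 2.44 to 4.03 in inguinal, without overlap. The muscle factors Myod1, Myog and Pax7 were at 0 to 0.0863 CPM in all 6 libraries. The part of muscle RNA in the matrix and tendon differences was not tested.

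Signalling genes higher in brown included 3 of 19 tested ligands of the TGF-beta and BMP family (median -0.40). Bmp5, a bone morphogenetic protein, was at 71.9, 18.6 and 27.9 CPM in brown and 1.58, 2.02 and 2.77 in inguinal (-4.22 ± 0.45, adjusted p = 4.38e-07). Inhba, the activin A subunit, was at 16.6, 11.7 and 6.22 against 4.08, 0.809 and 1.94 (-2.33 ± 0.46, adjusted p = 0.0063), and Bmp4 was at 42.0, 16 and 20.5 against 12.3, 8.53 and 14.8 (-1.14 ± 0.27, adjusted p = 0.0282). None of the 3 overlapped, though the Bmp4 groups came close. The Bmp4 call was lost without brown replicate 1 (log2 fold change -0.62, adjusted p = 0.63), inguinal replicate 1 (0.092) or 2 (0.23), and that of Inhba without brown replicate 1 (0.069), inguinal replicate 2 (0.0655) or 3 (0.0566). In the fit on the 6 libraries Bmp5 (0.083), Bmp4 (0.33) and Inhba (0.055) all missed the threshold. With the replicate number as a block in that fit, all 3 were called. Bmp7, a ligand used to drive brown fat formation, was at 18.3 to 24.2 CPM in both depots (-0.08 ± 0.23).

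Wnt pathway genes were called in both directions. Rspo3, an R-spondin that strengthens Wnt signals, was at 12.6, 11.9 and 10.2 CPM in brown and 5.03, 2.24 and 2.71 in inguinal (-1.79 ± 0.33, adjusted p = 0.00207). It was the 1 called of 16 Wnt ligands and R-spondins. Among 13 Wnt antagonists, Dkk3 (72.8, 56.8 and 46.8 against 26.7, 9.49 and 4.96, -2.10 ± 0.31) and Sfrp1 (210, 96.3 and 126 against 33.9, 45.7 and 43.2, -1.82 ± 0.39) were higher in brown. Dkk2 was higher in inguinal, at 155, 155 and 150 CPM against 84.2, 58.5 and 52.1 (1.24 ± 0.29, adjusted p = 0.0277). The depots did not overlap for any of the 4. The call of Dkk2 was lost without brown replicate 2 (adjusted p = 0.12) or 3 (0.17), without any 1 inguinal library (0.076 to 0.088) and with the 25 fibroblast libraries (0.056). That of Sfrp1 was lost without brown replicate 1 (0.16) or any 1 inguinal library (0.061 to 0.11), and that of Dkk3 in the fit on the 6 libraries (0.36).

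Other secreted factors and receptors were higher in brown. Angptl1, an angiopoietin-like protein, was at 392, 173 and 192 CPM in brown and 51.3, 53.4 and 61.3 in inguinal (-2.19 ± 0.30, adjusted p = 3.13e-05). Against the mean of the 7 other tissues Angptl1 was higher by 4.88 log2 units in brown and 2.69 in inguinal, and bone, at a mean of 95.1 CPM, lay between the 2 depots. F3, tissue factor or CD142, which marks a fibroblast population reported to restrain fat formation, was at 658, 564 and 660 CPM in brown and 215, 215 and 151 in inguinal (-1.70 ± 0.23, adjusted p = 3.07e-05), and the mesentery mean of 940 was higher than both. Mgp, an inhibitor of mineralization on the same list of 10 genes, was at 184, 59.9 and 116 against 62.0, 18.7 and 17.5, with overlap, and its call (adjusted p = 0.0196) was lost without brown replicate 1 (0.2) or inguinal replicate 2 (0.15) or 3 (0.15), with the 25 fibroblast libraries (0.053) and with the 6 (0.65). The list had a median of -0.48.

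Of the remaining list members higher in brown, Fgf1 (19.2, 12.9 and 11.3 CPM against 5.46, 4.89 and 5.27, adjusted p = 0.00106) and Fgf16 (1.64, 0.764 and 0.725 against 0.0862, 0.249 and 0.185, adjusted p = 0.0127) were the 2 called of 16 FGF genes. Rbp4, the carrier of retinol in blood, was at 31.0, 13.6 and 19.7 CPM against 7.90, 7.53 and 7.62 (adjusted p = 0.0232). Slc6a2, the noradrenaline transporter, was at 6.38, 3.28 and 4.80 against 1.15, 1.06 and 0.802 (adjusted p = 0.0168). No groups overlapped here. Against the mean of the 7 other tissues, Fgf1 was lower in both depots (log2 differences of -2.33 in brown and -3.80 in inguinal). By the call rule Slc6a2 was lower in inguinal only (-2.73), Fgf16 was higher in brown only (2.47), and Rbp4 differed in neither. Without brown replicate 1 the calls of Fgf16 (0.18), Rbp4 (0.29) and Slc6a2 (0.12) were lost. So were those of Rbp4 (0.086 to 0.11) and Slc6a2 (0.061 to 0.12) without any 1 inguinal library, that of Fgf16 without inguinal replicate 1 (0.12) or 3 (0.067) and, in the fit on the 6 libraries, that of Fgf16 (0.12).

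Several of the largest differences towards brown were in genes on no list. Morc1, an ATPase best known from germ cells, was at 24.8, 19.3 and 9.40 CPM in brown, 0.920, 0.653 and 1.05 in inguinal and at most 0.136 on average in any of the 7 other tissues (-4.34 ± 0.42, adjusted p = 1.67e-09). Musk, a receptor kinase of the neuromuscular junction, was at 44.3, 15 and 23.2 against 2.07, 1.12 and 1.42 (-4.15 ± 0.41, adjusted p = 7.41e-08). Vipr2, a receptor for vasoactive intestinal peptide, was at 19.6, 8.09 and 9.45 against 1.75, 0.622 and 0 (-3.93 ± 0.59, adjusted p = 0.00018). The groups did not overlap for any of the 3. For Vipr2 the difference of brown from the 7 other tissues did not pass the test (0.12 log2 units), and inguinal was lower by 3.81. Abca8a, a lipid transporter, was at 756, 343 and 582 CPM in brown against 251, 208 and 252 (-1.24 ± 0.24, adjusted p = 0.00286), and missed the threshold without brown replicate 1 (log2 fold change -0.97, adjusted p = 0.072).

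**Figure D4:**
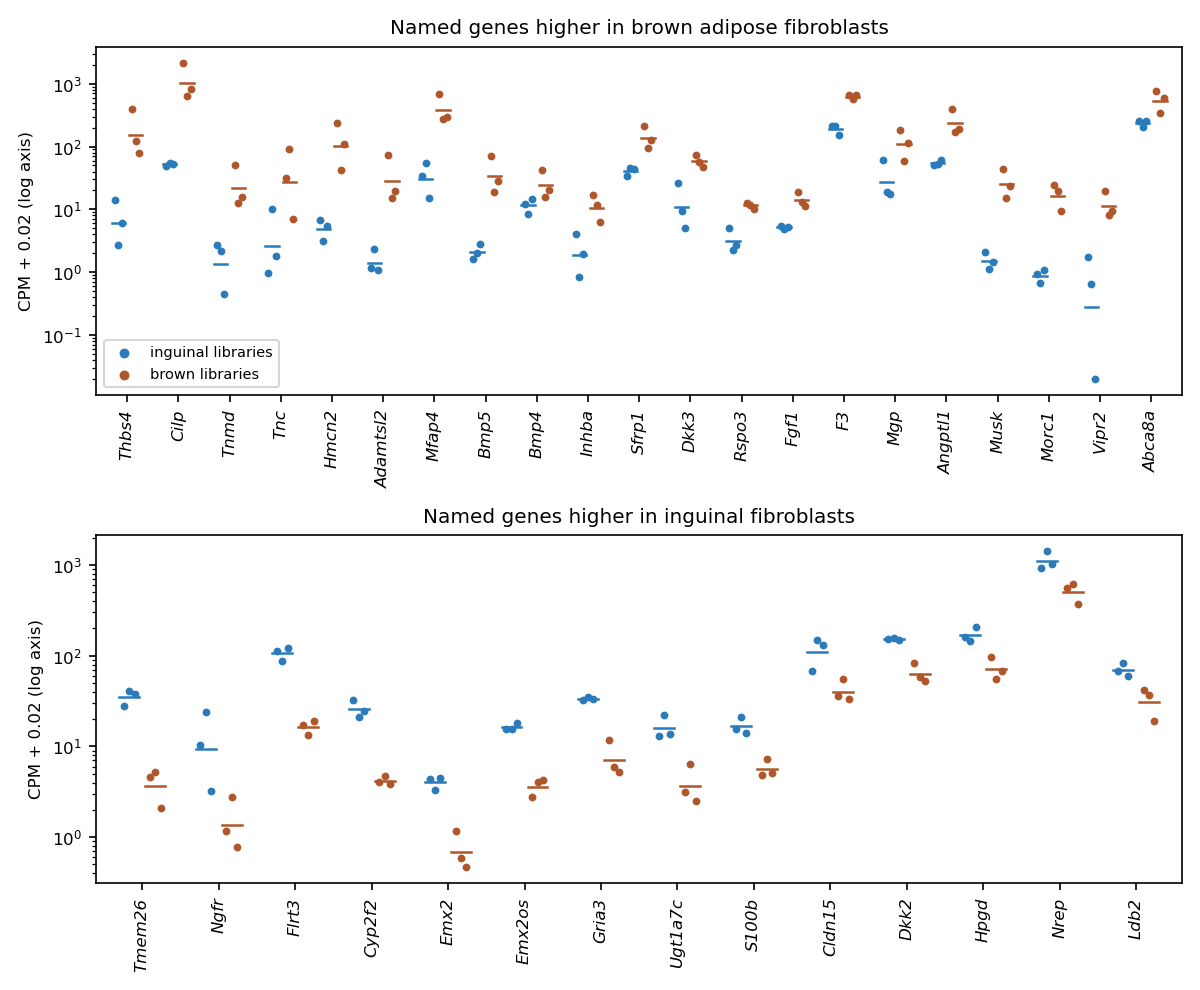
CPM plus 0.02 on a log axis in each of the 6 libraries for named genes higher in brown (top) and in inguinal (bottom), with lines at the geometric mean of each group. In the top panel brown replicate 1, drawn leftmost, is often the highest; Tnc and Mgp overlap between the groups in the top panel, and no gene in the bottom panel does.

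Plekhh1 shows how far the brown libraries could differ among themselves. It was at 86.2, 54.7 and 0.0837 CPM in brown and 0.316, 0.249 and 0.0925 in inguinal, so brown replicate 3 lay below all inguinal libraries although the gene was called (-7.71 ± 1.47, adjusted p = 0.00532). It overlaps Pigh on the other strand, and its call was lost without inguinal replicate 2 (0.0505) or 3 (0.0565) and in the fit on the 6 libraries (0.39). It was chosen for this split after its values were seen.

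On the inguinal side, the called genes with the largest differences outside the Hox genes were of mixed function. Flrt3, a membrane protein that guides cell adhesion and binds latrophilins, was at 114, 87.2 and 120 CPM in inguinal and 17.1, 13.4 and 19.1 in brown (2.70 ± 0.28, adjusted p = 1.37e-07). Here brown was the depot that stood apart: the 7 other tissues had means of 56.2 to 211 CPM, and brown lay 2.72 log2 units below their mean while inguinal differed by -0.03. Gria3, a subunit of the AMPA glutamate receptor, was at 32.5, 34.7 and 33 CPM against 11.7, 5.88 and 5.16 (2.14 ± 0.26, adjusted p = 3.96e-06), with brown 2.09 log2 units below the mean of the 7 tissues and lymph node, at 3.3 CPM, below brown. Both genes kept their groups apart.

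Ngfr, the low-affinity neurotrophin receptor, was at 10.4, 24.0 and 3.18 CPM in inguinal and 1.15, 2.74 and 0.753 in brown, close to overlap (3.01 ± 0.68, adjusted p = 0.0277), and its call was lost without brown replicate 1 (0.18) or 3 (0.15), inguinal replicate 2 (0.24), with the 25 fibroblast libraries (0.051) and with the 6 (0.42). Cyp2f2, a cytochrome P450, was at 32.9, 21.0 and 24.9 against 4, 4.72 and 3.82 (2.65 ± 0.53, adjusted p = 0.00862), a call lost without brown replicate 1 (0.074) or 3 (0.066) and with DESeq2 (0.082). Lymph node fibroblasts were far above both depots for Ngfr (mean 172 CPM) and Cyp2f2 (mean 489 CPM). Ugt1a7c, a glucuronosyltransferase, was at 13.1, 22.2 and 13.7 against 3.13, 6.31 and 2.45 (2.04 ± 0.26, adjusted p = 8.22e-06). It shares exons with other Ugt1a genes, so the member is uncertain. S100b, a calcium-binding protein of Schwann cells also made by other cells, was at 15.4, 21.3 and 14.1 against 4.77, 7.19 and 5.13 (1.57 ± 0.29, adjusted p = 0.00225). It was the 1 called of 6 tested Schwann cell genes, and Sox10, which defines that lineage, was at most 0.0837 CPM. The summed level of the list, before library scaling, was 45.0 to 70.8 CPM in inguinal and 46.2 to 48.9 in brown. The part of nerve cells in the Ngfr and S100b differences was not tested. Nor was the part of lymph node cells in the Ngfr and Cyp2f2 differences.

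The most abundant called genes on the inguinal side, per kilobase of exon, were led by Nrep, a small intracellular protein linked to TGF-beta signalling. It was at 927, 1427 and 1028 CPM in inguinal and 556, 613 and 371 in brown, or 289 and 131 CPM per kilobase, and against the mean of the 7 other tissues it was higher by 2.69 log2 units in inguinal and 1.55 in brown. The epididymal mean of 534 CPM was close to the brown mean of 513. Hpgd, which breaks down prostaglandins, was at 160, 146 and 205 CPM against 97.5, 55.6 and 68.0 (1.21 ± 0.23, adjusted p = 0.00307). Ldb2, a cofactor of LIM homeodomain proteins, was at 68.4, 84.1 and 59.7 against 42.0, 36.4 and 19.0 (1.12 ± 0.23, adjusted p = 0.0063). None of these overlapped. The difference of Nrep (1.14 ± 0.21, adjusted p = 0.00178) fell under the size needed for a call without brown replicate 3 (0.95) or inguinal replicate 2 (0.93), and the Ldb2 call was lost without the same libraries (adjusted p = 0.076 and 0.065) and in the fit on the 6 libraries (0.067).

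Genes with wider roles in fat missed a call. Esr1, the oestrogen receptor, was at 127, 143 and 143 CPM in inguinal and 84.1, 76.0 and 69.5 in brown; its adjusted p was 0.0441 and its log2 fold change of 0.85 ± 0.21 was below 1. Il33, a cytokine that maintains immune cells of fat, was at 249, 251 and 212 CPM in brown against 164, 95.5 and 120 (-0.91 ± 0.24, adjusted p = 0.0691). Without inguinal replicate 1 it was called (-1.14, adjusted p = 0.031). Fgf10, a growth factor for adipocyte progenitors, was at 83.9, 120 and 85.4 CPM in inguinal against 61.1, 48.4 and 52.1 (0.84 ± 0.30, adjusted p = 0.347). The groups were apart in all of these.

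**Figure D5:**
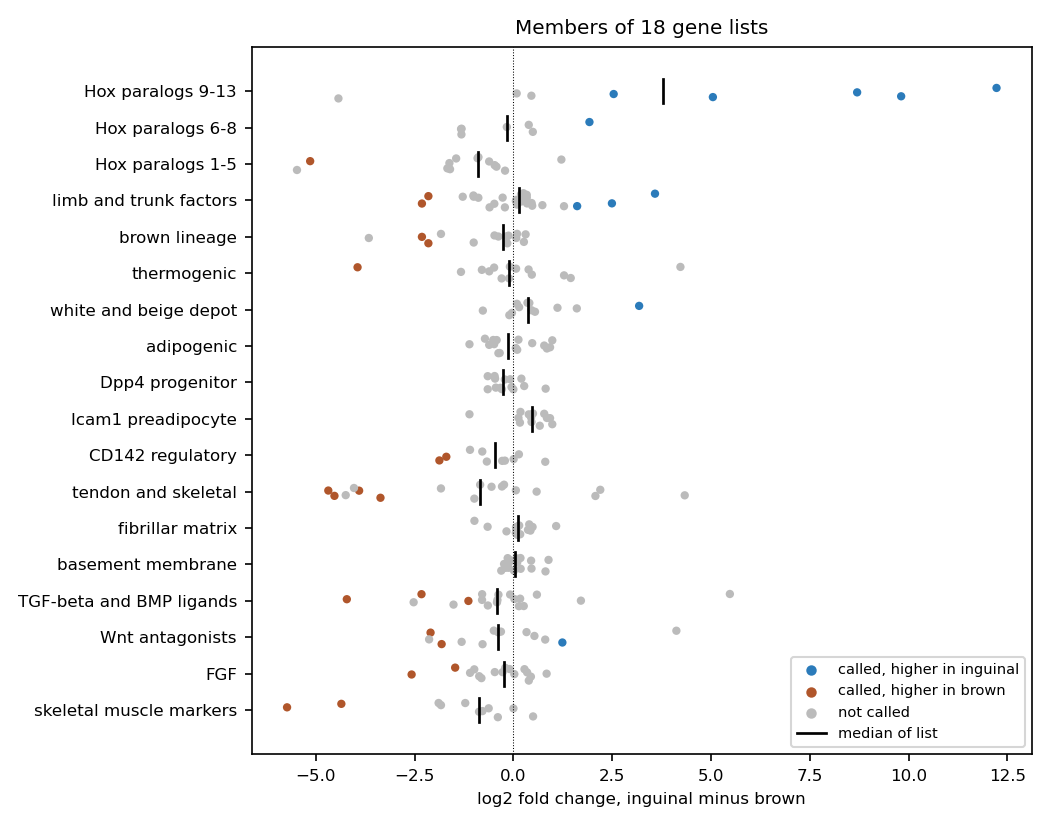
Log2 fold change (inguinal minus brown) of each tested member of the main gene lists, 1 point per gene, coloured where called, with a tick at each list's median. Hox paralogs 9 to 13 are shifted towards inguinal with a median of 3.79, and tendon and skeletal genes towards brown with a median of -0.84. The Dpp4 progenitor and fibrillar matrix lists have no called gene and medians of -0.25 and 0.11. The value of Hoxa10, which had no brown count, depends on the small count added by the fit.

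Set among all 9 fibroblast tissues, the called genes were split in where the difference lay. Of the 69 higher in inguinal, inguinal had the highest mean of the 9 tissues in 20 and brown the lowest in 17, and in 34 both depots lay within the range of the other 7. Of the 112 higher in brown, brown was the highest in 27 and inguinal the lowest in 41, and in 48 both lay within the range. Thus Zic4 and Morc1 were highest in brown and Emx2 and Tmem26 in inguinal, whereas Hoxa10 and Hoxc10 had their highest means in bone (34.9 and 40.3 CPM).

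Few markers of other cells were called. Of 10 mesothelial genes, Cldn15 was higher in inguinal (68.1, 148 and 132 CPM against 36.1, 54.9 and 33, log2 fold change 1.49 ± 0.28, adjusted p = 0.00225, or 0.078 in the fit on the 6 libraries). It made up most of the summed level of the list, while Msln and Upk3b stayed below 1 CPM. That sum, before library scaling, was 80.2 to 145 CPM in inguinal and 39.7 to 65.0 in brown. No gene of the leukocyte, endothelial, mural, mammary epithelial, adipocyte or lymph node stroma lists was called. Before library scaling, the summed leukocyte level was 10.2 to 34.8 CPM in inguinal and 12.5 to 21.9 in brown. The summed level of the 10 lymph node stroma genes was 269 to 332 CPM in inguinal and 393 to 514 in brown. No immediate early gene, which digestion of tissue can induce, was called among 18, and 16 of the 18 log2 fold changes were negative.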

How the data were processed

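Polyadenylated RNA of sorted mouse cells was sequenced in 34 libraries. The authors deposited raw counts per gene for 51826 gene IDs, uniquely aligned reads per the file headers; per the submitters' processing notes Salmon (version not given) and the GRCm38 build were used, so how the counts were made is not fully settled. Strand use is not given in the sources used here. Groups came from the sample titles. The members and gene lists were chosen with earlier results of these data known. Counts were tested with edgeR 4.0.16 in R 4.3.3 (TMM scaling, at least 10 counts by filterByExpr, robust quasi-likelihood fit on all 34 libraries, Benjamini-Hochberg adjustment over 25705 genes). DESeq2 1.42.0 was an alternative. The test was checked on simulated counts. Genes were named by rule: sort markers, the 10 largest differences per direction at 10 CPM or more without overlap, the 5 most abundant per kilobase, up to 4 called genes per list, and a set of genes of known depot biology. Genes named after their values were seen are said to be so, among them Hoxc11, Shox2, Hoxc4, Wnt2 and Plekhh1. Counts limit precision only through counting error in the intervals given. Other alternatives were RLE scaling, no filter on low counts, the replicate number as a block, the 25 fibroblast libraries or the 6 alone, and leaving out each library.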

Additional observations from a re-analysis of the deposited data

How the results depend on the processing

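The count of called genes depended most on which genes and libraries entered the fit. Against 181 genes (69 higher in inguinal, 112 in brown), no filter on low counts gave 446 (171 and 275), since more genes of very low count were tested, and the 6 libraries alone gave 105 (44 and 61). DESeq2 called 255, with 172 higher in brown. Leaving out 1 library at a time gave 116 to 190 genes in all, 42 to 63 higher in inguinal and 74 to 127 higher in brown, the lowest being without brown replicate 1. Of the 181 genes, 160 were also called with DESeq2, 178 with no filter and 93 with the 6 libraries. Over all genes, same-numbered libraries of the depots did not deviate together (correlations of -0.022, -0.011 and -0.014). None correlated best with its own number. This measure weighs all genes alike, so it cannot show that no gene varied by replicate number. The labels name no shared animal or day, so the numbers were not taken as pairs. With the replicate number as a block, 188 genes were called with all libraries and 186 with the 6, against 105 with the 6 and no block. Of the 188 and 186, 175 and 134 were among the 181. On the 6 libraries, 62 of 67 named called genes kept their call with the block and 41 without it. The 5 that lost it with the block included Mfap4, Pitx1 and Fgf16. The counts against the 7 other tissues moved by less than 1.5 times under each alternative. Of 68 called genes singled out by the naming rule or afterwards, 33 were called in every alternative and 35 were not, and none of the 68 changed direction. Genes not called changed the sign of a small or poorly measured difference when the library in parentheses was left out; their log2 fold changes over all such fits ran from the lowest to the highest as follows: Bmp7 -0.19 to 0.0058 (brown replicate 2), Cebpa -0.033 to 0.30 (brown replicate 3), Comp -1.42 to 0.075 (brown replicate 1), Dpp4 -0.14 to 0.088 (brown replicate 2 and inguinal replicate 2), Epcam -1.34 to 2.69 (brown replicate 3), Pdpn -0.30 to 0.0026 (brown replicate 1), Pecam1 -1.28 to 0.25 (brown replicate 2), Prdm16 -0.18 to 0.50 (inguinal replicate 1), Ptprc -0.86 to 0.76 (brown replicate 1), Tbx15 -0.035 to 0.25 (brown replicate 2), Ucp1 -1.55 to 1.59 (brown replicate 2 and inguinal replicate 2 and inguinal replicate 3), Wt1 -0.83 to 1.65 (brown replicate 2 and inguinal replicate 3). Depth limits the genes under 1 CPM, 17 of the 181.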

Other observations

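Several further called genes, chosen after their values were seen, were not described above. Hcar2, a receptor for nicotinic acid and ketone bodies that restrains lipolysis, was at 6.87, 6.57 and 5.46 CPM in inguinal and 0.431, 0.707 and 0.641 in brown (log2 fold change 3.40 ± 0.49 SE, adjusted p = 4.33e-05). Lymph node fibroblasts, with a Hcar2 mean of 41.6 CPM, were above both depots. Il18r1, a subunit of the interleukin 18 receptor, was at 40.3, 27.9 and 33.6 CPM against 5.32, 13.7 and 7.84 (1.92 ± 0.32, adjusted p = 0.000642), and no other fibroblast tissue had a mean above 7.62. Spon1, the matrix protein spondin, was at 163, 263 and 202 CPM against 107, 85.9 and 78.1 (1.21 ± 0.23, adjusted p = 0.00272). Against the mean of the 7 other tissues, Spon1 was lower by 1.46 log2 units in brown, and inguinal differed by -0.25. In the direction of brown, C1qtnf3, an adipokine of the C1q family, was at 158, 71.1 and 63.4 CPM against 14.3, 7.16 and 5.98 (-3.41 ± 0.33, adjusted p = 9.25e-08). Bone (174 CPM), mesentery (160) and spleen (142) had higher C1qtnf3 means than brown (97.4), and lymph node (2.36) was below inguinal. Against the mean of the 7 other tissues, C1qtnf3 was lower by 2.29 log2 units in inguinal and higher by 1.12 in brown. Prg4, the joint lubricant lubricin, was at 82.1, 79.9 and 54.5 CPM against 19.9, 20 and 15.4 (-1.97 ± 0.33, adjusted p = 0.000642). Bone, at a Prg4 mean of 158 CPM, was above brown. Pcsk6, a proprotein convertase that activates TGF-beta family ligands, was at 327, 289 and 322 CPM against 112, 78.5 and 110 (-1.64 ± 0.29, adjusted p = 0.00147). Pancreas, at a Pcsk6 mean of 306 CPM, was near the brown mean of 313. The groups did not overlap for any of these 6 genes, and their calls held in every alternative.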
